A study of Mus musculus with 9 samples.

Results

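The RNA of the normal mouse lens at 15.5 days post conception was described from 3 libraries of inbred wild type animals, out of 9 libraries in the series. Each library was made from 30 pooled lenses of the strain C57Bl/6<har>, for which the labels name no floxed allele, Cre transgene or treatment. The genes described are all those with a symbol that occurs once in the inbred tables, 7676 of the 7751 distinct symbols found in the series. The libraries of mixed-background wild type and Sip1 conditional knockout lenses were not used, and no groups were compared. The lowest mean in the inbred tables was 2 RPKM (reads per length of exon and per number of mapped reads), so a gene outside the list was either below that level or not analysed here.

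The lens is built from a sheet of epithelial cells that covers its front and from fibre cells that fill its body. Epithelial cells near the equator leave the cell cycle, elongate into fibres, fill with crystallins and later degrade their nuclei and organelles. Alpha crystallins are small heat shock proteins that hold other proteins in solution, and beta and gamma crystallins are compact structural proteins that give the lens its refractive index. The epithelium lays down the capsule, a thick basement membrane that surrounds the whole organ.

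The labelled tissue was checked against 5 lens genes. Cryaa (alpha A crystallin) ranked 1 of all listed genes by mean RPKM, Mip (the water channel of fibre cells) ranked 13, Bfsp1 and Bfsp2 (the beaded filament proteins of fibre cells) ranked 21 and 22, and Foxe3 (a transcription factor of the lens epithelium) ranked 222. The inbred tables list the same genes for every library, so being listed in each is no check. The lowest of the 5, Foxe3, was at 136, 115 and 158 RPKM. By level, the markers of both lens cell types were therefore present. In RNA from a whole organ, fewer cells of a type and less RNA per cell cannot be told apart.

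The promoters of Cryaa, Cryga, Crybb1 and Cryba4 (ranks 1, 2, 4 and 10 by mean RPKM) are shown because they hold the motifs whose frequency is counted after them. They are not the most abundant set: Cryge, at rank 3, holds no marked motif in its 150 bases and is not shown. Each is the 150 bases before the RefSeq transcription start on GRCm38.p6, written 5′ to 3′ on the gene's own strand. Capitals mark TATA where it lies 45 to 16 bases before the start, and TGCTGAC, the core of the element that Maf proteins recognise, on either strand. The windows are chr17:31677781-31677930 (+ strand) for Cryaa, chr1:65103364-65103513 (- strand) for Cryga, chr5:112255670-112255819 (+ strand) for Crybb1 and chr5:112252519-112252668 (- strand) for Cryba4.
Cryaa: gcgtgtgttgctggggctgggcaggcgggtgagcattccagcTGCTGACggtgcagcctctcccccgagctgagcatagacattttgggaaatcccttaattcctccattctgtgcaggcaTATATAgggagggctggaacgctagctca
Cryga: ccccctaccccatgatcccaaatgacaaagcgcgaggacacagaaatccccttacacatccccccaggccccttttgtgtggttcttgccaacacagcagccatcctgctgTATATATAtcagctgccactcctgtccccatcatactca
Crybb1: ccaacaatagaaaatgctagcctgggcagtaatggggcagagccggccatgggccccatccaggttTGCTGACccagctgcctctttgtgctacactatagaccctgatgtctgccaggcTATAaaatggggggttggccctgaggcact
Cryba4: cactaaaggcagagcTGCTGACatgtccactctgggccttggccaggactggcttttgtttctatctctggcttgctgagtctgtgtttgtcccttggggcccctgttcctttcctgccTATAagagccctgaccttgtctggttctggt
In Cryaa the letters TATA begin 29 and 27 bases before the start and TGCTGAC begins 108 bases before it. In Crybb1 they begin at 30 and 84 bases, and in Cryba4 at 31 and 135 bases. Cryga has overlapping TATA matches that begin 39, 37 and 35 bases before the start, and its TGCTGAC match lies farther upstream than the bases shown.

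For contrast, the windows of Crybb3 at chr5:113081585-113081734 (- strand) and Crybb2 at chr5:113070118-113070267 (- strand) are shown because these genes are neighbours and differ the most in level of all the crystallin neighbours. That of Eef1a1 at chr9:78481725-78481874 (- strand) is shown as a promoter of an abundant gene of every cell. None of the 3 holds the letters in capitals within its search window, which says nothing about which factors bind there.
Crybb3: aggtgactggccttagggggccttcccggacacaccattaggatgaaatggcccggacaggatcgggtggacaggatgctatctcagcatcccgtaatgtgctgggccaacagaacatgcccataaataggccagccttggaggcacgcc
Crybb2: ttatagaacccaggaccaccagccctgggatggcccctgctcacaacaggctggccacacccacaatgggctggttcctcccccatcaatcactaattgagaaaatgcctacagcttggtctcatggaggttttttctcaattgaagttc
Eef1a1: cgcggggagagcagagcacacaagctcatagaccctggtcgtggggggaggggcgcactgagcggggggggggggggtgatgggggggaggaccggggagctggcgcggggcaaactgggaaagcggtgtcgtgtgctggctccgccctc

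A promoter was found in the RefSeq table for 6204 of the 7676 genes, and for 15 of the 16 crystallin genes. TATA stood 45 to 16 bases before a start in 11 of these 15 (73.3%), against 6.72% of all 32851 promoters in the table and 3.92% of listed genes. The 4 without it were Cryge, Crybb3, Cryba2 and Crybb2. In Cryge the last letter of a TATA lies 15 bases before the start, just outside this window. A window that includes that base, added after the data were seen, held TATA in 12 of the 15 crystallin promoters and in 6.87% of all promoters. The longer TATAAA was found in 3 of the 15 crystallin promoters, against 2.14% of all promoters. By abundance, TATA was present for 29.9% of the 67 matched genes among the 100 most abundant, 9.94% among the next 400, 3.67% among the next 1500 and 3.17% among the remaining 5676. With the crystallins left out, the share of TATA among the first 100 was 17.0% (9 of 53). The longer TATAAA, also without crystallins, was found in 3.77% (2 of 53) of the first 100 against 3.31% of the next 400. It was 1.30% among the next 1500 and 1.07% among the remaining 5676. TATAA, of intermediate length, was in 9.43% (5 of 53) of the first 100 without crystallins. In the following sets TATAA was in 6.33%, 2.20% and 1.90%. The share outside the crystallins was thus higher at the top ranks for each string. For TATAAA the first 100 rest on 2 promoters and lie close to the next 400. The shorter search string was chosen after the values for the longer ones were seen.

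TGCTGAC on either strand, within 250 bases before the start, was found in 5 of the 15 crystallin promoters (33.3%): Cryaa, Cryga, Crybb1, Cryba1 and Cryba4. The share was 3.81% of all promoters and 3.27% of listed genes. None of the 61 matched ribosomal protein promoters held it. It was also absent from those of 71 nuclear oxidative phosphorylation genes, 14 lens transcription factors and 8 fibre membrane genes. Its absence was thus not particular to ribosomal protein genes. The number of CG steps relative to base composition also differed: its median was 0.27 for crystallin promoters, 0.83 for listed genes and 0.93 for ribosomal protein genes. It was 0.19 for the 5 matched erythroid genes, 0.29 for 9 vessel wall genes and 0.53 for 8 fibre membrane genes. Low values were thus not particular to crystallins. Nor was TATA, which stood in its window in 4 of the 5 erythroid promoters. All these matches are descriptions of sequence and not measured sites.

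Crystallin messages filled the top of the abundance list, with 12 of the first 12 ranks by mean RPKM. The shares of the 3 families are given in reads of listed genes. Alpha crystallins (2 genes) held 12.4% ± 0.42 (SD, n = 3), beta crystallins (6 genes) 13.2% ± 0.72 and gamma crystallins (8 genes) 11.6% ± 0.69. The alpha share rested on Cryaa, which alone held 12.2% of the reads. By summed RPKM, which is per length, the families differed more, at 18.0% for alpha, 16.2% for beta and 27.0% for gamma crystallins.

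Cryaa was at 89577, 91467 and 86004 RPKM in libraries 1, 2 and 3. Its coefficient of variation (CV, the SD as a percentage of the mean) was 3.12%. Cryab (alpha B crystallin), its partner in the alpha crystallin complex, was at 2132, 2310 and 1818 RPKM, with a CV of 12%. The ranges of Cryaa and Cryab did not approach each other in any library, and both were highest in library 2 and lowest in library 3.

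Among beta crystallins, Crybb1 was highest by RPKM, at 28028, 26903 and 25774. Cryba1, which encodes both the A1 and A3 proteins, followed at 25342, 24203 and 21385 RPKM, and their ranges over libraries did not overlap. Crybb3 had a mean of 13398 RPKM and Cryba4 of 11858 RPKM, also without overlap. Cryba2 had a mean of 6280 RPKM. By reads, which are not divided by exon length, the order differed. Cryba1 held 4.46% of the reads, Crybb3 3.60% and Crybb1 3.09%.

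Crybb2, a major beta crystallin of the adult lens, was far below the other members of its family at 4.29, 8.6 and 3.97 RPKM. It rested on 180 reads per library on average, for which counting alone gives a CV of 7.46%, and its measured CV was 46.0%. Library 2 was 2.17 times the lowest library. Crybb3, the neighbouring gene in RefSeq order, was 2384 times higher in mean RPKM. In the other neighbouring pairs of crystallin genes the members differed by 1.62-fold to 2.45-fold.

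Of the gamma crystallins, Cryga had the highest level at 42999, 43326 and 38512 RPKM. Cryge had a mean of 34599 ± 1328 RPKM (SD, n = 3), Crygb of 19124 ± 1643, Crygf of 14682 ± 890, Crygd of 14106 ± 785 and Crygc of 8697 ± 757. Crygf and Crygd differed by less than their spread, and every other neighbouring pair in this order had ranges that did not overlap. Crygn was lower at 3392 RPKM. The genes Cryga to Crygf are near-identical copies in part: 27.0% (Crygc) to 56.4% (Cryge) of the 31-base words of their transcripts also occur in other genes, so their individual levels are uncertain. Cryaa, Cryab, Crybb1, Cryba4, Crygn and Crygs share 0% of such words.

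Crygs, a gamma crystallin that persists in the adult lens, was the lowest of its family at 354, 471 and 343 RPKM. It was the gamma crystallin with the highest CV, 18.2%, against 1.52% from counting noise, and library 2 was highest. Of the 16 crystallins, 9 were highest in library 2, 7 in library 1 and 0 in library 3. Over all listed genes 18% were highest in library 2 and 29.6% in library 1. Only 1 of the 16, Crybb2, reached a ratio of at least 1.5 between its highest and lowest library, which 2.61% of all listed genes did.

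**Figure D1:**
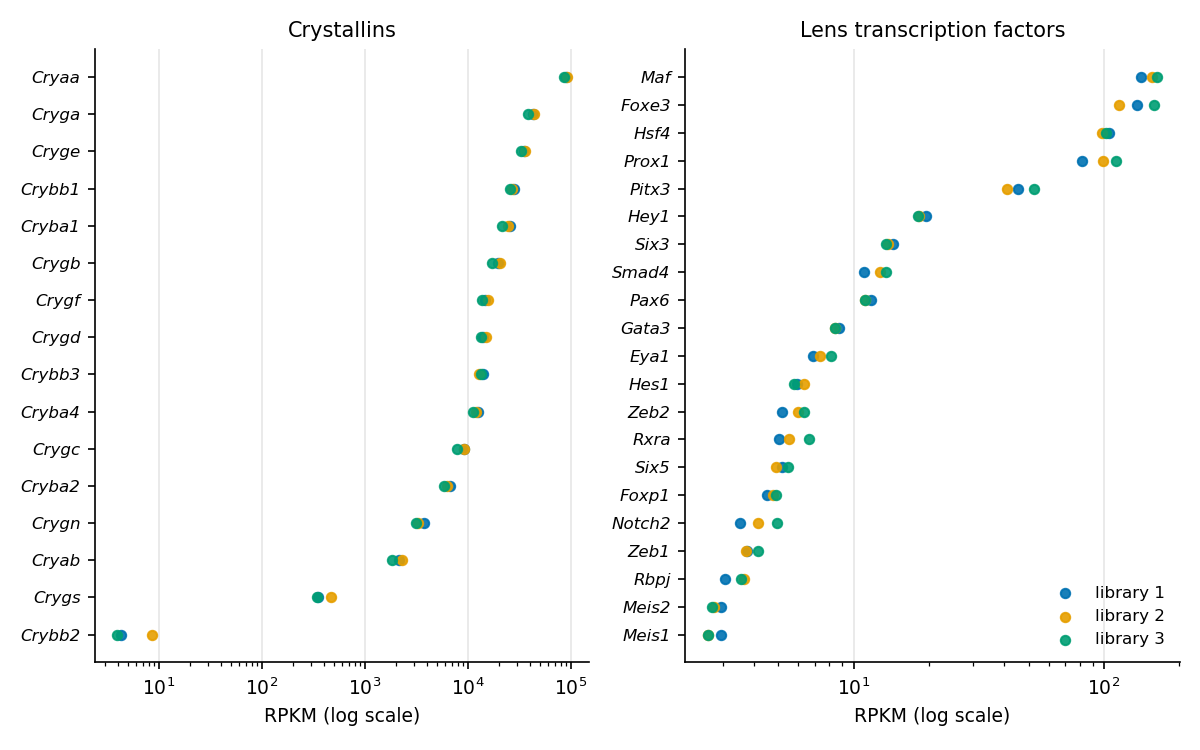
RPKM on a log scale of the 16 crystallins (left) and 21 of the 22 listed lens transcription factors (right), 1 point per library (n = 3, coloured by library). Crystallins span Crybb2 at 5.62 RPKM to Cryaa at 89016 RPKM, and transcription factors span Meis1 at 2.72 RPKM to Maf at 153 RPKM.

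The fibre cell membrane list had 13 of its 16 genes in the tables. Together they held 1.60% of the reads. Mip was at 3573, 3603 and 3689 RPKM, the 3 libraries lying within a CV of 1.66%. Lim2, a fibre membrane protein, was at 1183, 1157 and 1079 RPKM. Mip and Lim2 did not overlap, and Mip was the highest gene of the lens outside the crystallin family by both RPKM and reads, with 0.894% of the reads.

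Connexins form the gap junctions that join lens cells, which have no blood supply of their own once mature. Gja3 (connexin 46) was at 362, 401 and 429 RPKM. Gje1 (connexin 23) was at 283, 294 and 280 RPKM. The ranges of Gja3 and Gje1 did not overlap. Gja1 (connexin 43), the connexin of the epithelium, was at 18.4, 25.9 and 17.2 RPKM, with library 2 highest.

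All 15 genes of the fibre cytoskeleton list were present, with 1.8% of the reads. Bfsp1 was at 1432, 1542 and 1446 RPKM and Bfsp2 at 1533, 1502 and 1312 RPKM. Their ranges overlapped, so the beaded filament partners were not distinguishable in RPKM. By reads they lay apart, at 0.405% ± 0.016 for Bfsp1 and 0.268% ± 0.022 for Bfsp2 (SD, n = 3). Vim (vimentin), the intermediate filament shared by epithelium and fibres, was lower at 720 ± 25.8 RPKM (SD, n = 3). Actb (beta actin) was at 484, 477 and 476 RPKM.

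For fibre maturation, 14 of 15 genes were listed and held 0.692% of the reads. Ubb (polyubiquitin) had the highest level at 846 RPKM. Cdkn1c (the cell cycle inhibitor p57) was at 607, 591 and 633 RPKM, and Cdkn1b (p27) was at 12.5 RPKM. Cdkn1c thus stood far above the other 3 listed CDK inhibitors in every library. Tdrd7 and Caprin2, which encode RNA granule proteins needed for a clear lens, were at 364 and 153 RPKM. Of the 14 genes, 10 were highest in library 2, as were 18% of all listed genes.

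Some further genes outside these lists ranked high and were chosen after their values were seen. Which lens cells hold their RNA was not tested. Capn3, whose lens splice form is a calcium-dependent protease, was at 934, 891 and 930 RPKM and held 0.534% of the reads, behind only Mip and Eef1a1 outside the crystallins. Grifin, a galectin-related lens protein, was at 309, 306 and 318 RPKM. Aldh1a1, a retinaldehyde dehydrogenase, was at 446, 469 and 468 RPKM. Chrng, a subunit of the fetal muscle acetylcholine receptor, was at 173, 170 and 175 RPKM although 17 of the 20 muscle marker genes were outside the list. The 3 that were listed, Myh7b, Actn2 and Actn3, were at 5.35 to 6.32 RPKM.

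**Figure D2:**
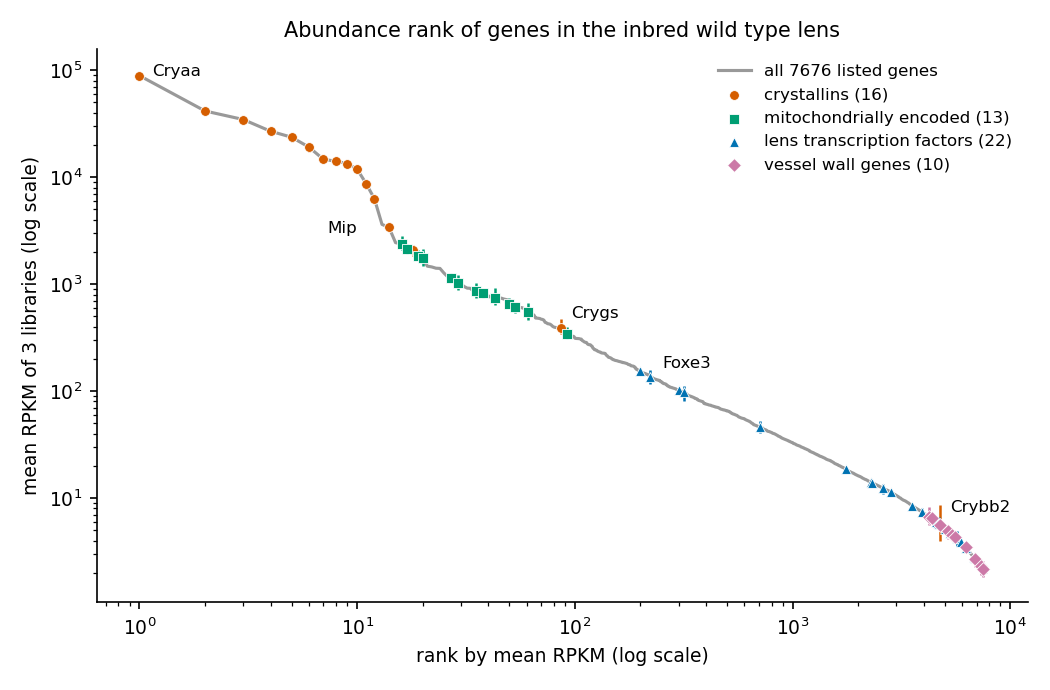
Mean RPKM of the 3 libraries against rank, both on log scales, for all 7676 listed genes (grey line), with crystallins, mitochondrially encoded genes, lens transcription factors and vessel wall genes marked and vertical lines from the lowest to the highest library. Crystallins hold ranks 1 to 12, the mitochondrially encoded genes lie between ranks 16 and 92, and the vessel wall genes start at rank 4248.

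Abundance fell steeply along the ranks. In all 3 libraries the first 5 genes held 25% of the reads of listed genes. The first 80 genes held 50%, counted on the mean, and 68, 73 and 101 genes did so in libraries 1, 2 and 3. It took 1064 genes to reach 75% and 3147 to reach 90%. Without crystallins, 612 genes held 50% of the remaining reads.

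The 30 genes at 1000 RPKM or more held 41.9% ± 1.77 of the reads (SD, n = 3). Of these, 14 were crystallins, 6 were mitochondrially encoded and 2 encoded ribosomal proteins. The next 278 genes, at 100 to 1000 RPKM, held 16.2%, and 60 of them encoded ribosomal proteins. The 2818 genes at 10 to 100 RPKM held 29.5%. The 2580 genes below 5 RPKM held 5.0%. In all, 308 of the 7676 genes (4.01%) averaged 100 RPKM or more. Of 50 genes linked to cataract, 45 were in the tables and 23 of them were at 100 RPKM or more.

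Cataract genes spanned the whole range of levels. Beyond the crystallins and fibre genes above, Ftl1 (ferritin light chain) was at 728 RPKM and Chmp4b (membrane scission) at 61.3 RPKM. Jam3 (a junction protein) was at 39.0, 38.2 and 38.8 RPKM, with a CV of 1.05%. Epha2 (an ephrin receptor) was at 18.2 RPKM, Nhs at 13.3 RPKM and Lss, a sterol synthesis enzyme, at 5.82 RPKM. Fyco1 (vesicle transport and autophagy), at 4.04 RPKM, Agk, at 3.02 RPKM, and Ocrl (an inositol phosphatase), at 2.17 RPKM, were close to the lower end of the list. Gcnt2, Tmem114, Unc45b, Galt and Mir184 were outside it.

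Of 28 lens transcription factors, 22 were listed, with 0.340% of the reads in all. Maf (c-Maf, an activator of crystallin genes) was highest at 140, 155 and 163 RPKM. Foxe3 was at 136, 115 and 158 RPKM, and its range overlapped that of Maf. Hsf4 (a heat shock factor of fibre cells) was at 105, 98.4 and 101 RPKM. Prox1 (needed for fibre elongation) was at 81.4, 99.4 and 112 RPKM and overlapped Hsf4. Pitx3, at 45.2, 41.0 and 52.4 RPKM, lay below these 4 in every library.

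Other regulators were lower. Hey1, a Notch target, was at 18.6 RPKM and Six3 at 13.9 RPKM. Pax6, the regulator of eye formation, was at 11.8, 11.1 and 11.1 RPKM, with a CV of 3.55%. Maf was thus more than 10 times Pax6 in RPKM in each library. RPKM divides by the deposited exon length, which was 19833 bases for Pax6 and 8241 for Maf. By reads the gap was smaller, at 0.145% for Maf and 0.0258% for Pax6, and Pax6 ranked 393 by reads against 2829 by RPKM. Gata3, which limits fibre cell division, was at 8.51 RPKM. Zeb2, the gene of Sip1, ranked 4654. Mafg, Mafk, Sox1, Sox2, Sox11 and Tfap2a were outside the list.

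Of 16 lens epithelium genes, 12 were listed and held 0.388% of the reads. Sfrp1, a secreted Wnt inhibitor, was highest at 262, 286 and 312 RPKM. Dkk3, a secreted protein of the dickkopf family, was at 215, 261 and 272 RPKM. Cdh1 (E-cadherin) was at 33.6, 34.4 and 37.1 RPKM, and Pdgfra, the platelet-derived growth factor receptor of the epithelium, was at 22.5 RPKM. The median CV of the 12 genes was 11.2%, against 7.21% over all listed genes. Their median level was 24.6 RPKM, against 67.7 RPKM for the fibre membrane list.

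The capsule and matrix list had 21 of 24 genes, with 1.18% of the reads. Col4a1 and Col4a2, the chains of the common type IV collagen, were at 287, 328 and 364 RPKM and at 203, 231 and 267 RPKM. Sparc, a matrix protein that binds collagen, was at 323 RPKM and Nid1 (nidogen) at 310 RPKM. Col4a1 was above Col4a2 in every library. Hspg2 (perlecan) was at 48.1, 61.4 and 84.8 RPKM. Col4a5 and Col4a6 were at 54.5 and 34.4 RPKM, and Col4a3 and Col4a4 were outside the list. In 20 of the 21 genes library 3 was above library 1, which held for 62.4% of all listed genes.

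Of 33 signalling receptors and ligands 20 were listed, none at 100 RPKM. Over all listed genes 4.01% reached that level, so with 20 genes this absence does not set the class apart. The median of the 20 was 7.30 RPKM, against 7.65 RPKM over all listed genes. Jag1, a Notch ligand, was highest at 60.7, 66.0 and 73.1 RPKM. Fgfr3, a receptor for the growth factors that drive fibre formation, was at 38.0, 42.5 and 43.8 RPKM. Notch1 was lowest at 2.07, 2.28 and 3.33 RPKM. All 20 were higher in library 3 than in library 1, as were 62.4% of all listed genes and 77.6% of those with 4000 to 8000 bases of exon.

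Of 30 cell cycle genes 27 were listed, with 0.222% of the reads. Their median level was 10.6 RPKM, against 7.65 RPKM over all listed genes. The highest were the D cyclins, which carry growth signals to the cell cycle: Ccnd2 at 84.8, 97.3 and 120 RPKM, Ccnd3 at 74.2 RPKM and Ccnd1 at 52.6 RPKM. Mcm2, a part of the replicative helicase, was at 29.0 RPKM and Tyms (thymidylate synthase) at 2.14 RPKM. Of 25 immediate early genes, which respond fast to outside stimuli, 11 were listed, with a median of 6.01 RPKM. Gadd45b had the highest level at 16 RPKM. Fos, Egr1, Junb and Atf3 were outside the list.

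Glycolysis had 16 of 20 genes listed and 0.740% of the reads. Pkm2 (pyruvate kinase) was at 756 RPKM, Eno1 (enolase) at 241 RPKM, the glucose transporter Slc2a1 at 226 RPKM and Pgam1 at 197 RPKM. Their median CV of 3.62% was low beside the 7.21% of all listed genes. Ldha (lactate dehydrogenase A) was at 123, 130 and 129 RPKM, and Ldhb was outside the list. Of 23 cholesterol synthesis genes, 22 were listed, with a median of 10.1 RPKM against 7.65 RPKM over all listed genes. Fdps was highest at 73.8 RPKM, and none reached 100 RPKM, as 4.01% of all listed genes did. With 22 genes, that absence does not set the class apart.

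Redox defence, which keeps lens proteins reduced, had 32 of 37 genes listed. Gstp1 (a glutathione transferase) was at 871 RPKM, Gpx1 (glutathione peroxidase) at 355 RPKM and Sod1 (superoxide dismutase) at 206 RPKM. Hmox1 (haem oxygenase) was at 32.7, 40.8 and 26.2 RPKM, with a CV of 22.1%. Mt1 and Mt2 (metallothioneins) and Nqo1 were outside the list.

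Ribosomal protein genes (82 listed) held 3.55% ± 0.20 of the reads (SD, n = 3) and 62 of them were at 100 RPKM or more. Rplp1 was highest at 1274 RPKM and Rpl7l1 lowest at 6.57 RPKM. Rplp1 shares 75.1% and Eef1a1 72.3% of their 31-base words with other genes, so their levels are uncertain. The same limit holds for all 56 genes at 100 RPKM or more that share at least 50%. Among them are Ftl1 (85.4%), Eno1 (77.2%) and Gstp1 (67.5%). Rpl10 was low for its class and widely spread, at 40.8, 33.3 and 25.1 RPKM. Of the 82 genes, 75 were highest in library 1, as were 65 of 85 nuclear genes of oxidative phosphorylation and 29.6% of all listed genes. Translation factors (58 listed) held 2.17%, with Eef1a1 at 2446 RPKM, chaperones (67 listed) 1.59%, with Hsp90ab1 at 949 RPKM and Hspa8 at 603 RPKM, and the proteasome (45 listed) 0.494%.

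The 13 mitochondrially encoded genes held 1.59% ± 0.23 of the reads. Their share was 1.85%, 1.51% and 1.41% in libraries 1, 2 and 3. mt-Co2 was at 2831, 2186 and 2092 RPKM and mt-Cytb at 2126, 1610 and 1489 RPKM. All 13 were highest in library 1, against 29.6% of all listed genes. Their median CV was 13.7%, and it was 10.3% after the scaling by exon length described with the spread between libraries.

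Imprinted genes, which are expressed from a single parental copy, had 18 of 27 members listed and 0.912% of the reads. H19, a long noncoding RNA, was highest at 1203, 1056 and 1270 RPKM. Igf2, its neighbour and a growth factor gene, was at 186, 173 and 211 RPKM, with library 2 lowest as for H19. Gnas was at 101 RPKM, and Peg10, at 2.19 RPKM, was lowest. Of other long noncoding RNAs, Malat1 was at 617 RPKM, Snhg12 at 76.6 RPKM and Gas5 at 71.0 RPKM, and Neat1 was at 2.66 RPKM.

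**Figure D3:**
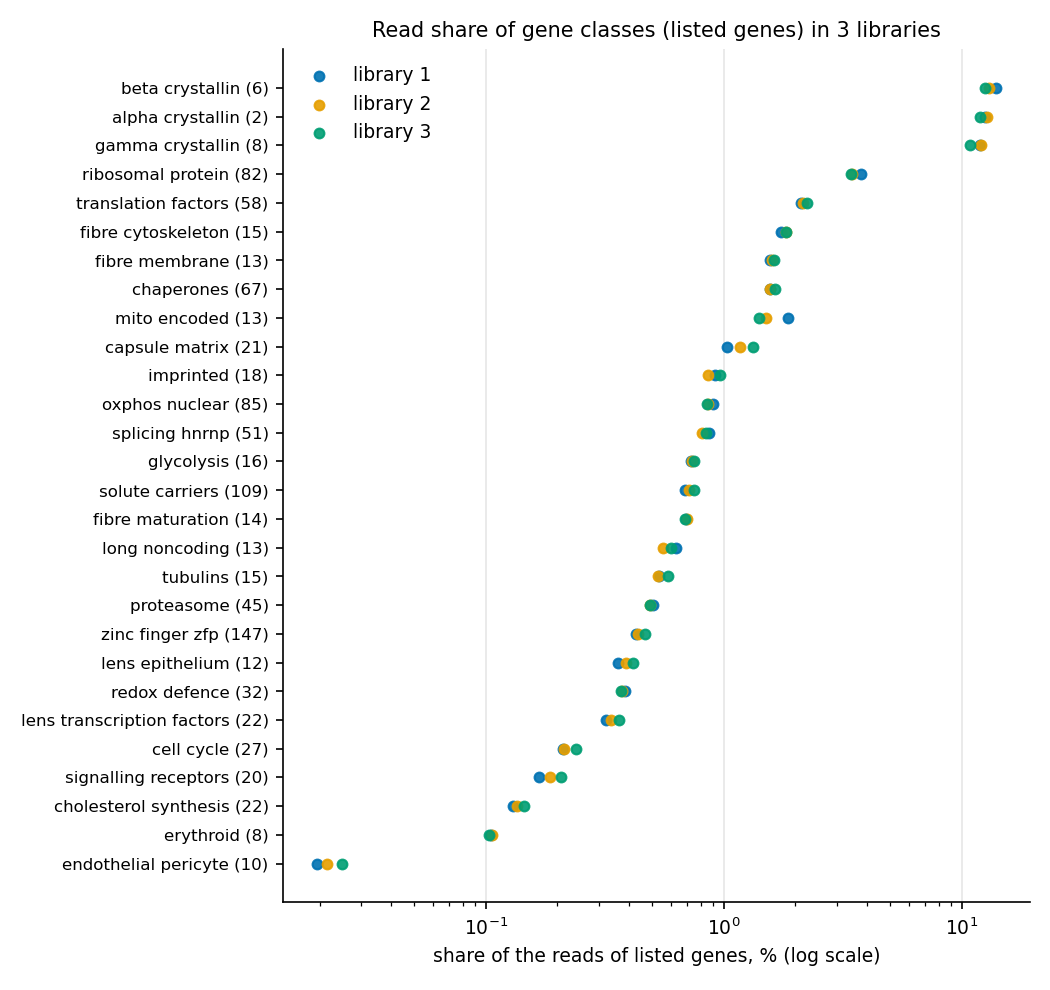
Share of the reads of listed genes, in percent on a log scale, held by 28 gene classes, 1 point per library (n = 3), with the number of listed genes in brackets. The crystallin families hold between 10.8% and 13.9% in each library, and the endothelial and pericyte genes hold 0.0196% to 0.0247%.

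Genes of other cell types were mostly outside the list. Of 17 macrophage genes 0 were listed, of 20 retina genes 3, of 11 pigment cell genes 1, of 19 surface epithelium genes 1, of 16 neuronal genes 2 and of 17 mesenchyme genes 3. Their summed shares were 0.0105% to 0.0129% of the reads for retina and 0.0233% to 0.0281% for mesenchyme over the libraries. The retinal regulators Rax, Crx and Otx2, the pigment genes Tyr and Dct, and the keratins Krt5 and Krt14 were all outside the list. Of the listed markers, the retina gene Rbp3 was at 7.17, 7.53 and 9.33 RPKM and Hes5 at 3.36 RPKM. Mitf of the pigment list was at 3.05 RPKM and Perp of the surface epithelium list at 5.05 RPKM. The mesenchyme genes Fbln1 and Col5a1 were at 5.63 and 5.11 RPKM, and the neuronal gene Stmn4 at 2.70 RPKM. Uchl1, a ubiquitin hydrolase used as a neuronal marker, was at 194, 183 and 165 RPKM, but Tubb3, Elavl3, Dcx, Stmn2 and Snap25 were outside the list. The retina-marked Sfrp2, at 32.1, 22.1 and 25.8 RPKM, and the mesenchyme-marked Pdgfra also belong to the lens epithelium list.

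Vessel and blood cell genes were present in every library. The vessel wall list had 10 of 21 genes, none above Notch3 at 6.67 RPKM. Cdh5 (VE-cadherin) was at 4.18, 4.89 and 5.55 RPKM and Tie1 at 1.82, 2.16 and 2.59 RPKM. All 10 were higher in library 3 than in library 1, against 62.4% of all listed genes. Their summed share was 0.0196%, 0.0214% and 0.0247% of the reads. Of 20 erythroid genes 8 were listed. The alpha globin genes Hba-a2 and Hba-a1, near-identical copies, were at 392 and 270 RPKM, and the adult beta globin Hbb-b1 at 272 RPKM. The embryonic globin Hbb-y was at 16.7, 15 and 10.1 RPKM and Hba-x at 4.62 RPKM. The erythroid membrane and enzyme genes Slc4a1 and Alas2 were outside the list. The summed erythroid share was 0.103% to 0.106% of the reads, and its part in other results was not tested.

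The spread between libraries was small for most genes. The median CV over all listed genes was 7.21%, with quartiles of 4.44% and 10.7%, and the median that counting noise alone gives was 4.55%. In 2091 genes (27.2%) the CV was at or below counting noise. The labels state that the replicates are independent. No pair of libraries looked like repeat deposits of 1 library, since the chi-square per degree of freedom between their read counts was 6.97 to 16.7. The most abundant genes were not the least variable: the median CV was 6.53% at 1000 RPKM or more, where counting noise gives 0.43%, and 8.67% below 5 RPKM, where it gives 6.65%.

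At 100 RPKM or more, Igfbp7, a secreted growth factor binding protein, was the least variable gene at 395, 394 and 393 RPKM, a CV of 0.278%. Eno1 was at 242, 242 and 240 RPKM. Hnrnpk (an RNA binding protein), Ywhaz and Ywhah (14-3-3 proteins), Actb, Arf1, Atxn10, Rps4x and Psmc1 followed, with CVs up to 1.49%. These CVs lie below or close to the counting noise of the genes, so no order among them can be read.

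A ratio of at least 1.5 between the highest and lowest library was reached by 200 of the 7676 genes (2.61%), and a ratio of 2 by 19 (0.248%). Of the 200 genes, 138 were highest in library 3, against 52.4% of all listed genes, and 131 were lowest in library 1. Among the 3126 genes that averaged 10 RPKM or more, 1.06% reached 1.5-fold. High ratios among these included those of Hipk2 (a kinase, 1.84), Sntb1 (syntrophin, 1.84), Lrp1 (an endocytic receptor, 1.79) and Hspg2 (1.76). Lrp1 was at 14.4, 17.2 and 25.8 RPKM. Ptprf (a receptor phosphatase) was at 44.9, 56.5 and 75.2 RPKM and Fat1 (a giant cadherin) at 20.6, 25.9 and 32.2 RPKM. In all of these library 3 was highest and library 1 lowest. Hbb-y, Rpl10 and Miat were highest in library 1, and Hmox1 in library 2.

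**Figure D4:**
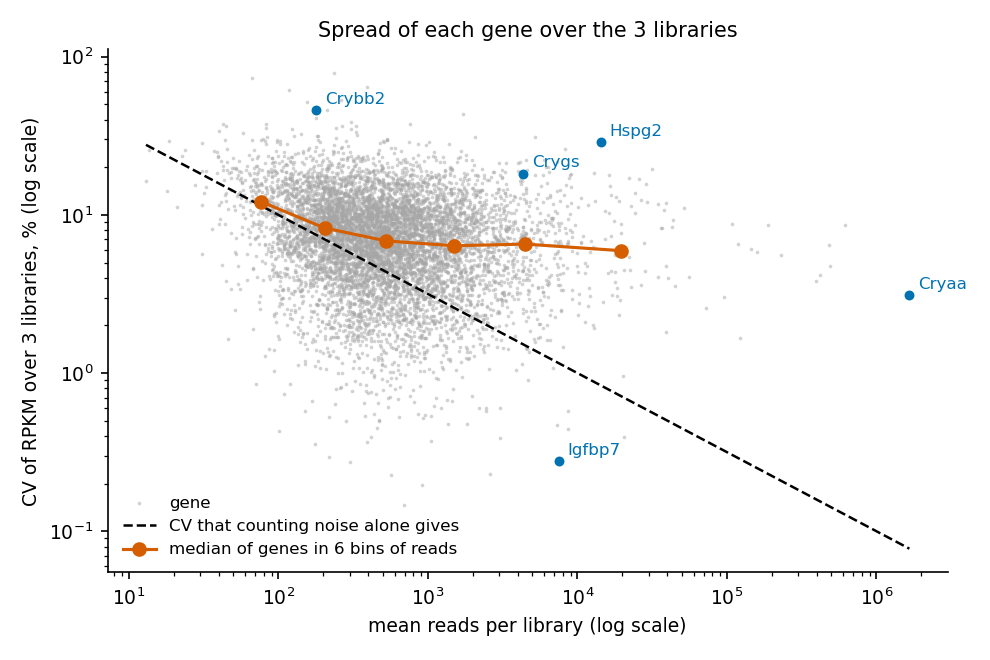
CV of the 3 RPKM values in percent against mean reads per library, both on log scales, 1 grey point per gene, with the CV that counting noise alone gives (dashed) and the median CV in 6 bins of reads (orange). Above about 1000 reads the median CV stays near 6% while the counting line falls, and Hspg2, Crygs and Crybb2 lie above the median of their bin.

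The difference between libraries 3 and 1 moved with exon length. The median of log2 (library 3 over library 1) was -0.16 for the 298 genes with under 1000 bases of exon, -0.08 at 1000 to 2000 bases, 0.03 at 2000 to 4000, 0.14 at 4000 to 8000 and 0.26 for the 789 genes of 8000 bases or more. Library 3 was higher in 15.8% of the shortest genes and in 90.9% of the longest. The median of log2 (library 2 over library 1) was -0.13, -0.08, -0.01, 0.05 and 0.12 over the same bins. GC content of the transcript did not move with it in the same way, since medians over genes of low, middle and high GC (equal numbers of genes in each) were 0.06, 0.07 and 0.06. Within each of these GC groups the longest genes were at 0.24 to 0.29 and genes under 2000 bases at -0.13 to -0.08.

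Many class differences between libraries run parallel to this length pattern. Crystallins have a median exon length of 922.5 bases and ribosomal protein genes of 1454 bases, and both were lower in library 3. Capsule and matrix genes, at 6818 bases, and signalling receptors, at 6442.5 bases, were higher in it. To describe what is left beyond length, each library was scaled to the median ratio within 20 bins of exon length, a step added after the data were seen. The class median of log2 (library 3 over library 1) went from -0.14 to -0.02 for crystallins and from -0.17 to -0.08 for ribosomal proteins. It went from 0.34 to 0.18 for capsule and matrix genes. After scaling 20 of these 21 were higher in library 3, against 3850 of all 7676 listed genes.

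Of the 37 classes with at least 8 listed genes, 3 had a difference of over 0.2 after this scaling. On the scaled values 3850 of all 7676 listed genes were higher in library 3. Vessel wall genes stayed at 0.28, with 10 of 10 higher in library 3. Mitochondrially encoded genes stayed at -0.27, with 0 of 13 higher in library 3. Long noncoding RNAs were at -0.33, with 2 of 13 higher. In single genes the ratio of highest to lowest library went from 1.79 to 1.46 for Lrp1, from 1.76 to 1.44 for Hspg2 and from 1.84 to 1.58 for Hipk2, and for Crybb2 it was 2.17 both before and after. Of the 200 genes at 1.5-fold, 121 were also at 1.5-fold after scaling. The source of the length pattern was not tested.

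**Figure D5:**
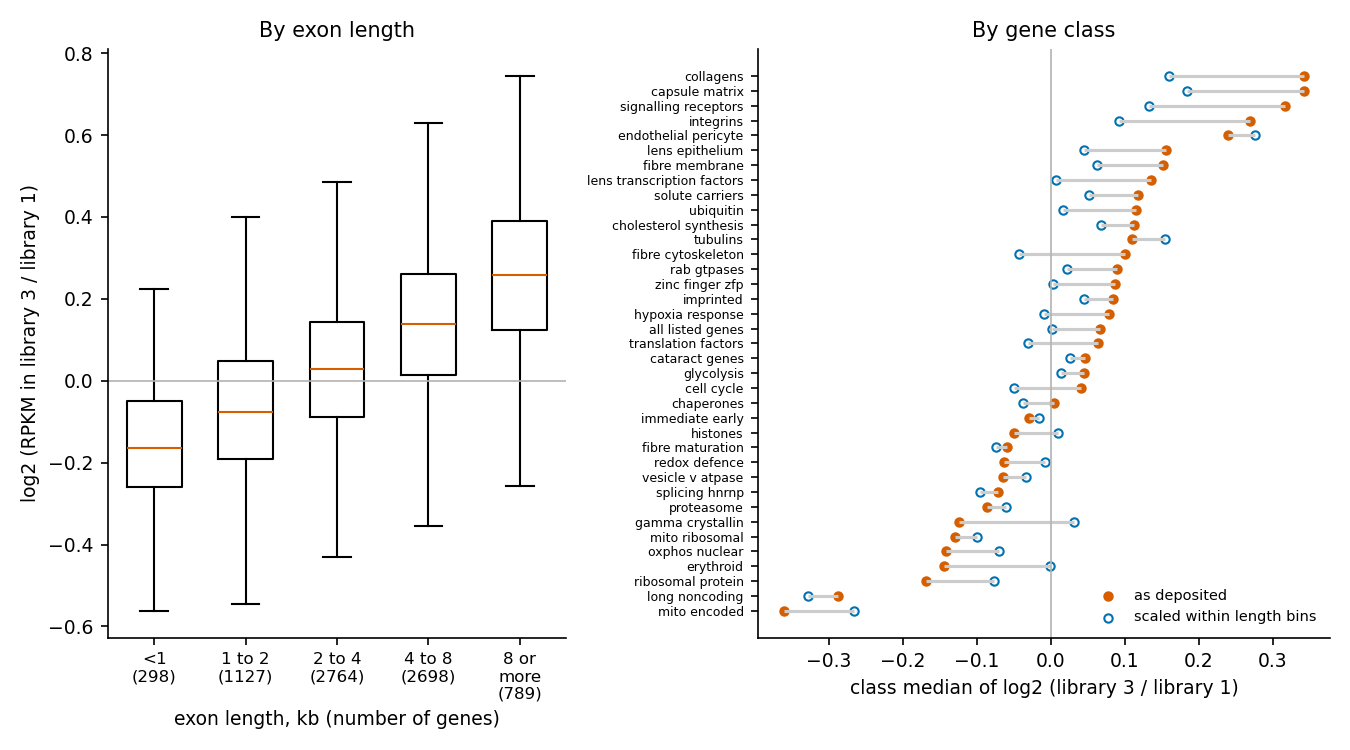
Left, log2 of RPKM in library 3 over library 1 by exon length in kilobases (box, quartiles; line, median; whiskers, 1.5 times the box height at most; points beyond are not drawn). Right, class medians of the same quantity as deposited (filled) and after scaling within exon length bins (open). Medians go from -0.16 in the shortest genes to 0.26 in the longest, and mitochondrially encoded, long noncoding and vessel wall genes stay over 0.2 from 0 after scaling.

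The authors' second column, a normalized expression value with no stated unit, weighted abundant genes differently from RPKM. The median over all listed genes was 1.57 units per read. Among genes at 100 RPKM or more it was 1.30 for the 130 genes that share under 5% of their 31-base words with other genes, 0.72 for the 120 genes that share 5% to 50% and 0.38 for the 56 that share more. Sequence sharing and the low value went together for Tuba1a (77.0% shared, 0.395 units per read) and Hba-a2 (91.0%, 0.203). They did not for Cryba1 (4.53% shared, 0.241 units per read), Bfsp2 (0%, 0.269), Mip (0%, 0.526) or Gnas (0%, 0.199). Levels set between genes therefore depend on which of the deposited columns is read, and all levels above are RPKM.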

How the data were processed

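Only the 3 inbred wild type libraries were used. Per the labels' protocols, RNA was extracted from frozen lenses with a kit and prepared with Illumina TruSeq reagents. The submitters' processing notes name CASAVA 1.8.2. The aligner, annotation and genome build were not given in the sources used here. The authors deposited RPKM values, a normalized expression value (treated as a score without a unit) and exon lengths, per the file headers. Of 7700 rows, 24 with 12 repeated symbols were left out. RPKM times exon length gave whole reads (100% of 724 to 756 low values per library, within 0.1 reads), and from these the depths of 16.7, 16.3 and 14.1 M mapped reads, of which 86.7% to 87.0% fell in listed genes.

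Read shares, CV, counting noise (1 over the square root of mean reads) and ratios between libraries are descriptions. No p-value was computed. Genes named are the 30 highest by RPKM, the 10 highest by reads, all crystallins, the 4 highest and the lowest of each class, listed lens transcription factors, cataract genes and markers of other cells, the 20 most variable at 10 RPKM or more, the 10 least variable at 100 RPKM or more and the 6 lowest, and some of these are not reported here. The 50 classes and the genes were chosen with earlier results of these data known. GENCODE M21 (7614 genes matched) gave shared words and GC content, and RefSeq on GRCm38.p6 gave promoters and gene order. The depth and spread steps were tested on simulated data. Alternatives covered denominators, scaling, low values and each library left out. Python 3.11.15, numpy 2.4.6, pandas 2.3.3, scipy 1.17.1 and matplotlib 3.10.9 were used.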

Additional observations from a re-analysis of the deposited data

How the results depend on the processing

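Other denominators moved the read shares. The crystallin share was 32.3% of all mapped reads, 61.2% of summed RPKM and 25.2% of the authors' normalized values. The ribosomal protein share was 3.09%, 4.89% and 1.59% on the same scales, and the mitochondrially encoded share was 2.92% of summed RPKM. The genes that hold 50% numbered 8 by summed RPKM and 612 without crystallins. Leaving out each library in turn gave a crystallin share of reads of 36.6% to 38.2%, a median CV of 5.24% to 7.29% and 46 to 150 genes at 1.5-fold. That count was 46 without library 1 and 50 without library 3. It was 85 among genes at 5 RPKM or more, 19 at 2-fold and 126 on RPKM + 0.5. Scaling within exon length bins, added after the data were seen, gave a median CV of 6.03%. TATA in place of TATAAA, also added later, gave 29.9% in place of 7.46% of promoters at rank 1 to 100, and 31.3% in a window 1 base longer. The class median of log2 (library 3 over library 1) changed sign with the length scaling in 7 of 37 classes, among them gamma crystallins (-0.12 to 0.03), fibre cytoskeleton (0.10 to -0.04) and translation factors (0.06 to -0.03). No paired analysis was possible because only 1 group was described and no test was made. Depth limits genes near 2 RPKM, and with 3 libraries a CV is itself imprecise.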
